A study of Mus musculus with 57 samples.

Results

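The 27 genes described here belong to cholesterol synthesis and its control, and they were taken by symbol from the 52853 genes kept in the count table of adipose tissue from mice with the Mfn2-R707W change knocked in (KI) and from wild-type (WT) siblings. They were chosen as a list of names along the pathway. No measured value was in the rule, but earlier results of these data were known when the list was made. From the same data the study had already reported lowered cholesterol homeostasis genes in inguinal white adipose tissue on a high-fat diet. It reported this gene set as not significantly changed there on chow and as raised in brown adipose tissue. The counts below are thus not independent of that report, although its gene set is a published list and not the one used here. Of these, 6 genes encode the mevalonate arm, 2 the prenyl chain, 3 the steps from squalene to lanosterol, 8 the steps from lanosterol to cholesterol, 6 the SREBP machinery and 2 cholesterol transport. Although the list was drawn up with LDL uptake in view, it holds no lipoprotein receptor, so receptor-mediated uptake itself was not measured through its members.

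All mice were males on a C57BL/6J background. KI mice were homozygous for an arginine to tryptophan change at codon 707 of the endogenous Mfn2 gene, which encodes a mitofusin of the outer mitochondrial membrane, together with a silent change that creates an EcoRV site, and the whole colony came from 1 CRISPR-Cas9 founder. WT mice were co-housed siblings without these changes. From 5 weeks of age the mice were kept for 6 months on chow or on a high-fat diet (HFD) with 45% of its energy from fat. RNA sequencing covered inguinal white adipose tissue (WAT) on HFD, with 8 KI and 8 WT mice and 2 libraries per mouse. These libraries share 1 column per mouse. How they were joined is not stated, and each column was taken as their sum. Inguinal WAT on chow had 6 KI and 7 WT mice, and brown adipose tissue (BAT) on HFD had 6 KI and 6 WT mice.

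Cells build cholesterol from acetyl-CoA through mevalonate, isoprenoid units, squalene and lanosterol, and most of the enzymes sit in the membrane of the endoplasmic reticulum (ER). The transcription factor SREBP2, encoded by Srebf2, controls nearly the whole set. When ER sterol is low, the escort protein SCAP carries SREBP2 to the Golgi, where the proteases encoded by Mbtps1 and Mbtps2 release its active part, and when ER sterol is high, INSIG proteins hold SCAP back. Adipocytes hold much of their cholesterol in the lipid droplet and plasma membrane, and Insig1 is itself a target of the pathway it restrains.

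Promoter sequence is shown for the 4 members with the largest fold differences between genotypes in inguinal WAT on HFD, described below, because SREBP2 acts at such sites together with the factors NF-Y, which binds CCAAT, and SP1, which binds GC boxes. Each run lies before the RefSeq gene start (build GRCm38.p6, at most 250 bases, bases inside an annotated exon left out), written 5′ to 3′ on the gene's own strand. For Insig1 and Cyp51 the 49 bases next to that start were left out in this way. Matches outside the printed runs are not shown, among them the 1 CCAAT match of the Cyp51 window. Capitals mark matches, on either strand, to the sterol regulatory element TCACNCCAC, to CCAAT or to the GC box GGGCGG, where a match on the other strand reads as the reverse complement.
Insig1, chr5:28071162-28071362, plus strand: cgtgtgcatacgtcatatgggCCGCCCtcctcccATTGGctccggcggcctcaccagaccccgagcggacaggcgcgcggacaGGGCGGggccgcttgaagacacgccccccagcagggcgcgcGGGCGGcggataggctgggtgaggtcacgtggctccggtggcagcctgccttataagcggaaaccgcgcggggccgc
Nsdhl, chrX:72918412-72918520, plus strand: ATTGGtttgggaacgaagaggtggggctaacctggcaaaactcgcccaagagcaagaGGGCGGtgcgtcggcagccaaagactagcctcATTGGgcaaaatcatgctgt
Cyp51, chr5:4104747-4104947, minus strand: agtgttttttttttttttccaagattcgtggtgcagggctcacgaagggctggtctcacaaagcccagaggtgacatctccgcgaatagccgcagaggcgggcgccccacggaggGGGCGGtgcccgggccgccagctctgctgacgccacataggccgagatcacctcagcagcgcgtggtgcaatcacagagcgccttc
Hmgcs1, chr13:119690101-119690350, plus strand: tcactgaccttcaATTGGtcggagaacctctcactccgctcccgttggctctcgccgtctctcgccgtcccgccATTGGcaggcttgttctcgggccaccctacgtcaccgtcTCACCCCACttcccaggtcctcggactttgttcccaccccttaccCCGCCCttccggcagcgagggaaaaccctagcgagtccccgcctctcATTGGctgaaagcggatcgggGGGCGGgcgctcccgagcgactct

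Hmgcs1 was the only member whose promoter window held the sterol regulatory element, as TCACCCCAC on the sense strand, with its first base 137 bases before the start. The windows searched ran from 250 bases before to 50 after each RefSeq start, and 23 of the 27 members had 1 or more (29 windows in all). The sterol element was in 1.24% of all 32851 mouse windows. CCAAT was found in 19 of the 29 member windows, against 37.4% of all windows, and GGGCGG in 23 of the 29, against 35.7%. Counted by gene, with a match in any window, 19 of the 23 members held CCAAT and 20 held a GC box. Of the 13 members with a window that were called lower in KI inguinal WAT on HFD (below), also by gene, 13 held CCAAT and 12 held a GC box. The share of all genes with a match in any window is not given. The counts by gene thus have no background beside them and do not set the lowered members apart. A match is a stretch of letters and not a shown binding site, and the lack of one says only that these letters were not in this window.

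Columns held 17572752 to 25680411 counts per mouse in inguinal WAT on HFD, 8668279 to 11720458 in inguinal WAT on chow and 8042591 to 10522554 in BAT. Levels are given as CPM, counts divided by library size on a common scale, after TMM scaling within a tissue and diet. Tissue labels went with their markers: the summed CPM of 8 brown adipocyte markers was 9015 to 14925 in BAT and at most 919 in inguinal WAT. Several columns stood apart. Skeletal muscle markers were highest in KI mice 3 and 5 of inguinal WAT on HFD, in KI mouse 4 on chow (71588 CPM, next highest mouse 754) and in WT mice 1 and 2 of BAT, lymphocyte markers in 3 mice on HFD and 1 on chow, and epithelial markers in 1 mouse on chow. Counts of called members and their log2 fold changes were repeated without these 10 mice. The levels, the spread between mice and the related lists were not. The R707W change is a missense change that gene counts do not show, and Mfn2 itself was 182 ± 23.97 CPM in WT and 230.2 ± 27.1 CPM (SD, n = 8 each) in KI inguinal WAT on HFD (log2 fold change 0.34, edgeR adjusted p = 0.0114).

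In inguinal WAT on HFD, 14 of the 27 members were lower in KI than in WT mice and none was higher, at an adjusted p under 0.01 in edgeR's quasi-likelihood test over all genes (17 of 27 had an unadjusted p under 0.05, 16 of them lower). Over all 16471 genes tested in this tissue and diet, 5.24% were called lower and 6.21% higher at the same adjusted p. The share of all genes with an unadjusted p under 0.05 is not given for any comparison, so the unadjusted counts have no background beside them. The median log2 fold change of the 27 members was -0.50, beside 0.01 for all genes tested, and 22 of the 27 were negative. The members called lower were 5 of 6 in the mevalonate arm, none of 2 in the prenyl chain, 1 of 3 from squalene to lanosterol, 6 of 8 from lanosterol to cholesterol, 1 of 6 in the SREBP machinery and 1 of 2 in transport. For 7 members every KI mouse was below every WT mouse, a pattern seen in 2.37% of all genes tested. In such bulk tissue, fewer cells of a type and less RNA per cell cannot be told apart.

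**Figure D1:**
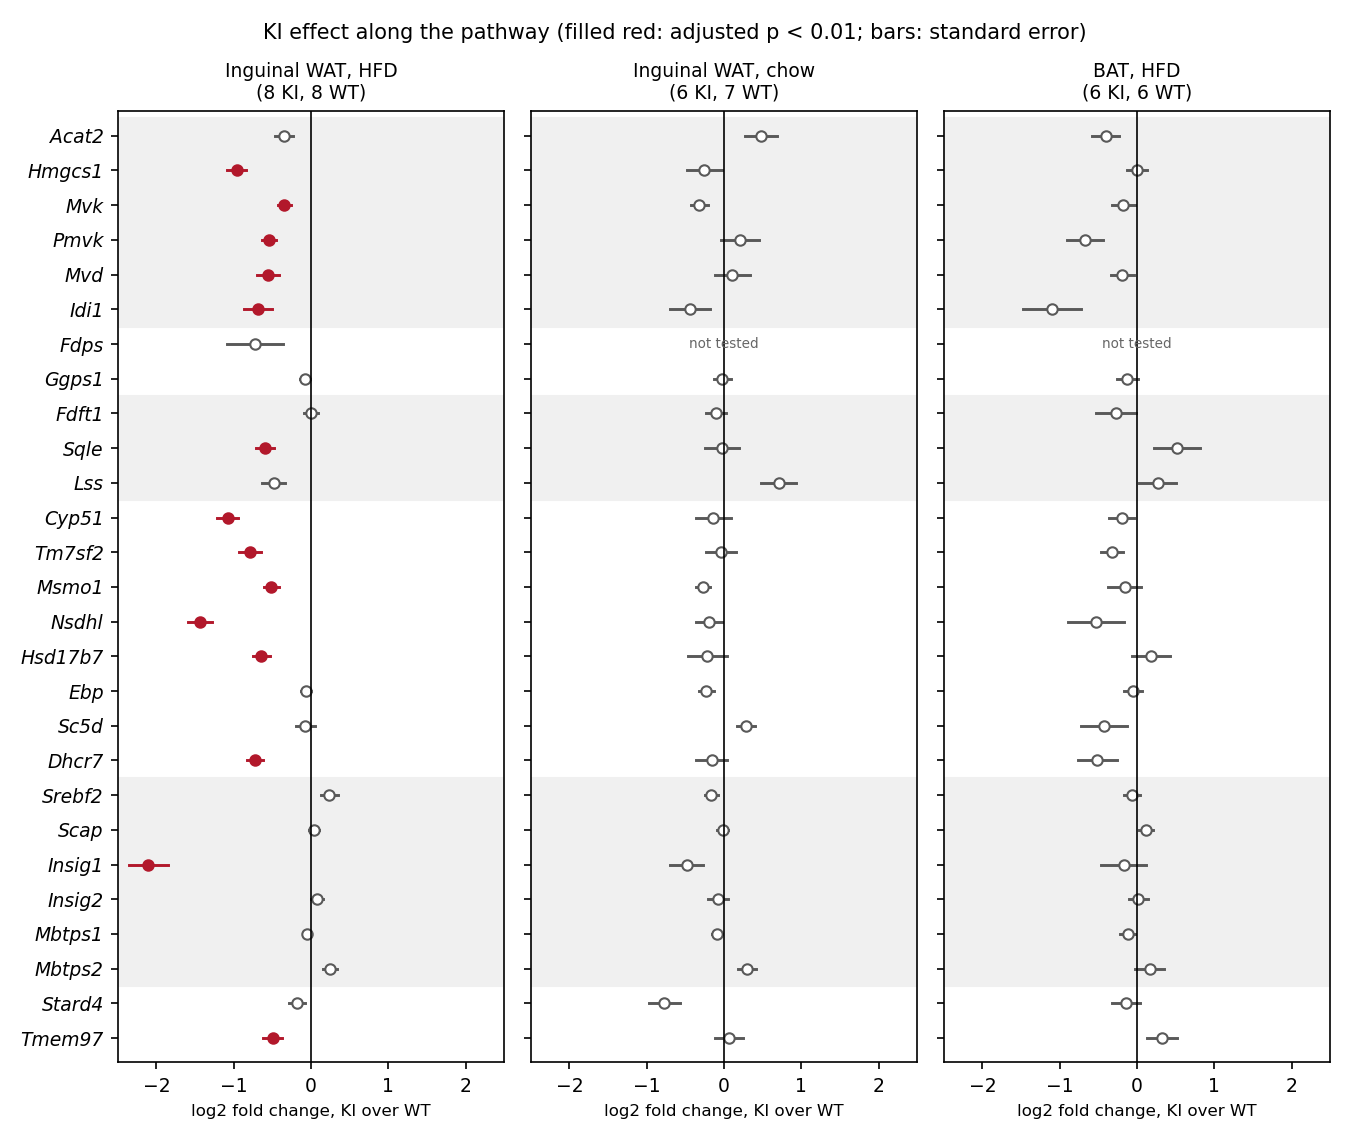
Log2 fold change of KI over WT mice (x axis, log2 scale) for the members in pathway order (y axis), in inguinal WAT on HFD, inguinal WAT on chow and BAT on HFD, with bars of 1 standard error either side and red points for adjusted p under 0.01. The 14 red points are all in inguinal WAT on HFD and all lie below 0, with Insig1 farthest out at -2.10.

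Hmgcs1 (ENSMUSG00000093930, GRCm38 chr13:119690379-119708260), the cytosolic HMG-CoA synthase that makes the substrate of the committed step, was the called member with the highest level per kb of gene length in WT inguinal WAT on HFD. Its lowest, median and highest values were 215, 319 and 407 CPM in the 8 WT mice and 141, 151 and 220.0 CPM in the 8 KI mice. The groups overlapped through 1 KI mouse, number 3, while the other 7 KI mice lay within 141 to 157 CPM. The log2 fold change was -0.96 with a standard error (SE) of 0.12 (edgeR adjusted p = 1.75e-05). The WT mean was 308 ± 62.6 CPM and the KI mean 158 ± 25.4 CPM (SD, n = 8 each).

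The kinases and the decarboxylase that turn mevalonate into isoprenoid units were lower by smaller steps. Mvk, mevalonate kinase, ran from 29.9 to 45.3 CPM in WT mice with a median of 33.0, and from 21.7 to 29.4 CPM in KI mice with a median of 27.5. No KI value reached the lowest WT value (log2 fold change -0.35, SE 0.08, edgeR adjusted p = 0.00582). Pmvk, phosphomevalonate kinase, had a median of 35.0 CPM (29.2 to 43.3) in WT and 24.5 CPM (21.4 to 29.5) in KI mice, and the groups touched at 1 KI mouse. Its log2 fold change was -0.54 (SE 0.09, adjusted p = 0.00033). Mvd, mevalonate diphosphate decarboxylase, had a median of 11.3 CPM (8.71 to 14.1) in WT and 7.26 CPM (5.49 to 11.7) in KI mice, with 7 of 8 KI mice below every WT mouse (log2 fold change -0.55, SE 0.14, adjusted p = 0.00944). Idi1, the isopentenyl diphosphate isomerase, was low in both groups, with medians of 4.68 CPM (2.78 to 7.26) and 3.11 CPM (2.11 to 3.68), and 5 of 8 KI mice lay inside the WT range (log2 fold change -0.68, SE 0.18, adjusted p = 0.00977).

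Acat2, the thiolase that joins acetyl-CoA units at the head of the pathway, went the same way without passing the threshold, with a WT mean of 30.8 ± 5.22 CPM and a KI mean of 24.2 ± 4.46 CPM (SD, n = 8 each; log2 fold change -0.35, adjusted p = 0.0436). In the prenyl chain, Ggps1, which makes the geranylgeranyl donor, was at 28.0 ± 1.17 and 26.6 ± 2.76 CPM (adjusted p = 0.483). Fdps, farnesyl diphosphate synthase, had at most 28 counts in any mouse, which is too few to say much about it. Why its counts were so low was not tested, so its expression cannot be read from them. These few counts lie on a gene model that shares 26.7% of its exon bases with the predicted gene Gm43738 on the same strand.

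Between squalene and lanosterol, Sqle, the squalene epoxidase that is a flux-controlling step, was lower in KI mice. Its median was 13.8 CPM (8.82 to 16.3) in WT and 8.66 CPM (7.50 to 9.38) in KI mice, with a narrow KI group that only the lowest WT mouse entered (log2 fold change -0.60, SE 0.12, adjusted p = 0.00105). Fdft1, squalene synthase, was the same in both groups within 1 SD, at 70.1 ± 11.5 and 70.2 ± 5.99 CPM (log2 fold change 0.00, SE 0.09). Lss, lanosterol synthase, had 23.2 ± 6.38 and 16.6 ± 2.18 CPM and did not pass (log2 fold change -0.48, SE 0.15, adjusted p = 0.0294). Fdft1 shares 18.3% of its exon bases with Ctsb on the other strand, and whether counting used strand is not stated. The same limit holds for the called members Hmgcs1 (12.1%, with Gm48342), Idi1 (9.22%, with Gm48574) and Cyp51 (3.76%, with Akap9). It also holds for Scap (13.2%), Ggps1 (5.44%) and Lss (3.53%), which were not called.

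The steps after lanosterol held the largest enzyme differences. Nsdhl (ENSMUSG00000031349, chrX:72918557-72958514), the dehydrogenase that removes the methyl groups at carbon 4 of the sterol ring, had a median of 51.7 CPM (31.9 to 79.6) in WT and 19.2 CPM (15.6 to 23.4) in KI mice. The lowest WT mouse was thus above the highest KI mouse, and the KI mice were also closer to each other (log2 fold change -1.44, SE 0.16, adjusted p = 3.77e-06). Cyp51 (ENSMUSG00000001467, chr5:4081145-4104746), lanosterol demethylase, had a median of 28.9 CPM (18.9 to 39.0) in WT and 14.1 CPM (8.57 to 16.7) in KI mice, again with no overlap (log2 fold change -1.08, SE 0.14, adjusted p = 1.63e-05). Nsdhl was at 0.369 and Cyp51 at 0.474 of the WT level.

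Tm7sf2, the sterol reductase that acts next to Cyp51, had medians of 9.05 CPM (6.46 to 11.8) and 5.24 CPM (4.38 to 6.45). The highest KI mouse lay just under the lowest WT mouse (log2 fold change -0.79, SE 0.14, adjusted p = 0.000578). Tm7sf2 shares 12.1% of its exon bases with Vps51 on the same strand. Dhcr7, which makes cholesterol from 7-dehydrocholesterol in the last step of one branch, had medians of 19.8 CPM (14.5 to 23.5) and 11.8 CPM (9.77 to 13.6), with no overlap (log2 fold change -0.72, SE 0.10, adjusted p = 5.54e-05). Hsd17b7, the ketosteroid reductase of the same demethylation steps, had medians of 7.21 CPM (6.68 to 9.97) and 4.80 CPM (4.49 to 6.00), also with no overlap (log2 fold change -0.64, SE 0.11, adjusted p = 0.000427). Msmo1, the methyl oxidase that works before Nsdhl, had medians of 28.7 CPM (23.6 to 40.3) and 20.6 CPM (18.1 to 24.6), and 1 KI mouse lay inside the WT range (log2 fold change -0.51, SE 0.10, adjusted p = 0.00095).

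The 2 members of this stretch that were not called were the isomerase Ebp, with a WT mean of 31.0 ± 2.24 and a KI mean of 29.7 ± 1.95 CPM (log2 fold change -0.06, SE 0.06), and the desaturase Sc5d, at 139 ± 24.4 and 133 ± 24.1 CPM (log2 fold change -0.07, SE 0.12). Both stand after the demethylation steps and before Dhcr7. Ggps1, Fdft1, Ebp and Sc5d lay at 0.95, 1.00, 0.957 and 0.952 of the WT level.

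Insig1 (ENSMUSG00000045294, chr5:28071363-28078662), the sterol-regulated ER anchor of SCAP, had the largest difference of all 27 members. The 8 WT mice ran from 97.5 to 386 CPM with a median of 183, and the 8 KI mice from 38.8 to 64.5 CPM with a median of 44.6. WT mouse 4 was the highest and WT mice 7 and 8 were the lowest of the WT group, and all were above every KI mouse. The log2 fold change was -2.10 (95% interval -2.64 to -1.57, edgeR adjusted p = 2.04e-05), so the KI level was 0.233 of the WT level. The other 5 genes of the SREBP machinery did not pass the test. Srebf2 had a WT mean of 49.7 ± 9.20 and a KI mean of 58.6 ± 9.21 CPM (log2 fold change 0.24, adjusted p = 0.158), and Scap had 57.1 ± 5.42 and 58.6 ± 3.30 CPM (0.04, adjusted p = 0.743). Insig2, the related anchor, had 49.0 ± 5.15 and 51.7 ± 4.40 CPM (log2 fold change 0.08, adjusted p = 0.501). The protease genes Mbtps1 (log2 fold change -0.05, adjusted p = 0.534) and Mbtps2 (0.25, adjusted p = 0.0608) were not called either, and Mbtps2 shares 28.4% of its exon bases with Yy2 on the same strand. Counts of mRNA do not measure how much SREBP2 protein was cleaved.

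Of the transport genes, Tmem97, a membrane protein of the ER and lysosome that binds NPC1, was lower, with medians of 14.6 CPM (12.4 to 18.3) in WT and 11.1 CPM (6.86 to 12.6) in KI mice (log2 fold change -0.50, SE 0.12, adjusted p = 0.00788). Its groups overlapped at 1 KI mouse. Stard4, a soluble sterol carrier, had 10.4 ± 1.63 and 9.19 ± 0.872 CPM (log2 fold change -0.18, adjusted p = 0.237).

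**Figure D2:**
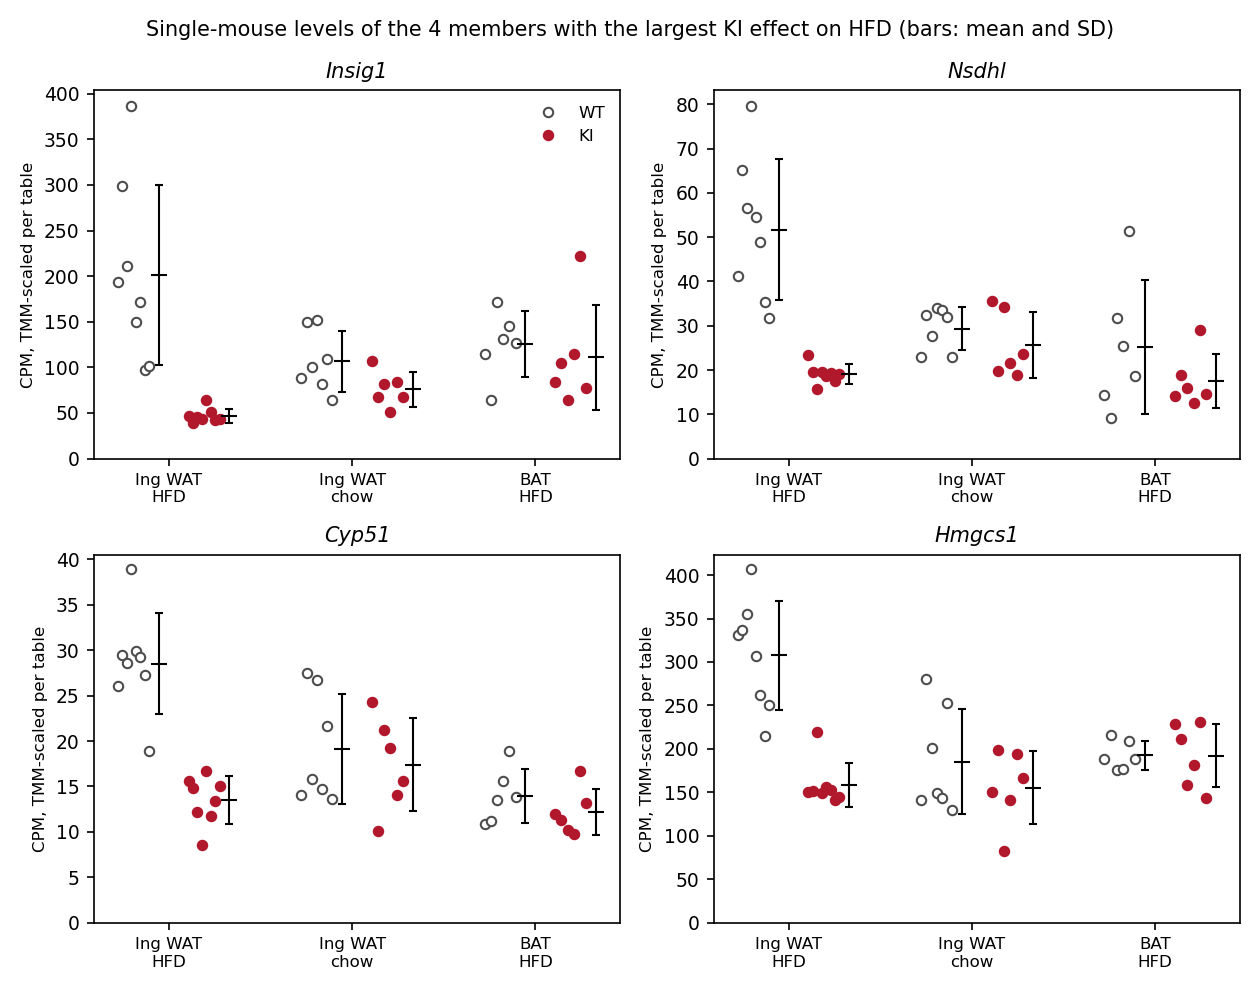
CPM of single mice (y axis, linear from 0, TMM-scaled within each tissue and diet) for Insig1, Nsdhl, Cyp51 and Hmgcs1, WT as open and KI as filled points, with the mean and SD of each group beside them. In inguinal WAT on HFD the KI points of Insig1, Nsdhl and Cyp51 lie wholly below the WT points, while on chow and in BAT the groups overlap.

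Each mouse was also set against the WT mean, gene by gene, and the median over the 26 members tested in all 3 tables was taken. In inguinal WAT on HFD this median was -0.24 to 0.16 (log2) in WT and -0.54 to -0.25 in KI mice. The 2 ranges did not overlap, but KI mouse 1 (-0.250) stood next to WT mouse 8 (-0.236). On chow the ranges were -0.16 to 0.13 in WT and -0.30 to 0.16 in KI mice, and in BAT they were -0.21 to 0.31 and -0.26 to 0.16, so they overlapped in both.

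**Figure D3:**
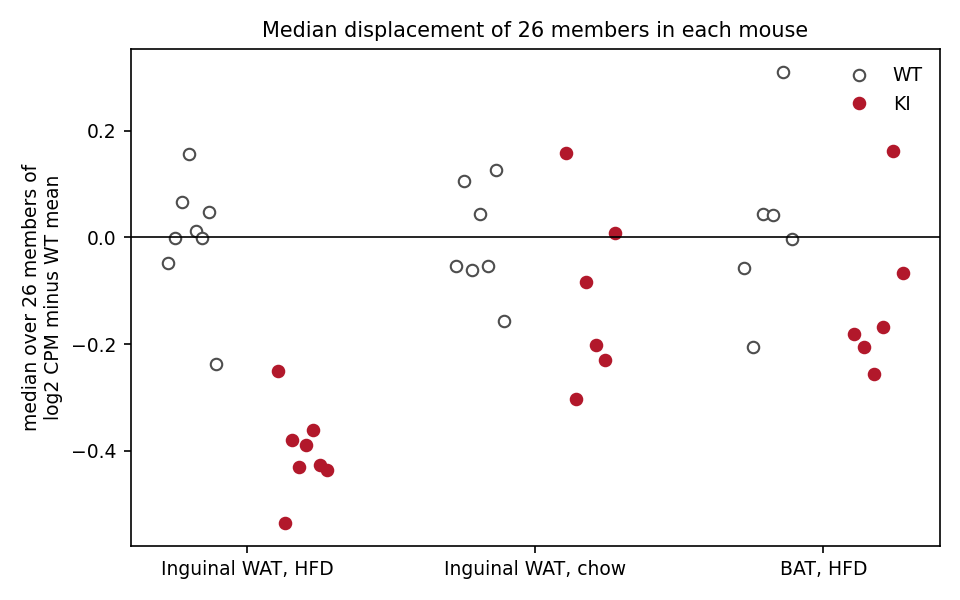
Median over 26 members of each mouse's log2 CPM minus the WT mean (y axis, log2 units), by tissue, diet and genotype, 1 point per mouse. The 8 KI mice in inguinal WAT on HFD lie between -0.54 and -0.25, below all 8 WT mice, and the other pairs of groups overlap.

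The spread between mice was narrower in KI than in WT inguinal WAT on HFD for 20 of the 27 members (74.1%), with a median coefficient of variation of 16.5% in WT and 11.5% in KI mice. Among all genes tested there, 57.8% had the smaller coefficient in KI mice. On chow the count was 9 of 27 (33.3%, all genes 40.0%) and in BAT 13 of 27 (48.1%, all genes 34.4%). Insig1 on HFD was the clearest case, with an SD of 98.6 CPM around 201 CPM in WT and of 7.93 CPM around 46.8 CPM in KI mice.

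Other measures moved with genotype in the same inguinal WAT on HFD. Mitochondrially encoded transcripts were 5.40% to 14.8% of counts in WT and 2.15% to 3.68% in KI mice, and with them left out 13 members were called. Of the 8 fibroblast markers 2 were called lower (sum 2514 to 4373 CPM in WT, 2010 to 3245 CPM in KI), and of the 8 macrophage markers 1 was (sum 742 to 1221 and 511 to 1585 CPM). Of the 8 adipocyte markers 3 were called lower and 1 higher (sum 29109 to 43140 and 27548 to 37296 CPM), and of the 4 brown adipocyte markers tested 2 were higher (sum of 8 markers 28.6 to 46.8 and 45.5 to 90.8 CPM). None of these markers was at 0 in every mouse, and their part in the result was not tested. Without the 5 mice high in muscle or lymphocyte markers, 10 members were called lower, and Mvk, Idi1, Sqle and Tmem97 were not (adjusted p = 0.0511, 0.0582, 0.0128 and 0.0556), at log2 fold changes of -0.30, -0.64, -0.62 and -0.40. Insig1 was then at -2.06, Nsdhl at -1.32, Cyp51 at -1.12 and Hmgcs1 at -1.06 (log2 fold change). Leaving out 1 mouse at a time gave 10 to 15 members, and the 10 called every time were Hmgcs1, Pmvk, Sqle, Cyp51, Tm7sf2, Msmo1, Nsdhl, Hsd17b7, Dhcr7 and Insig1. One fit of all 6 groups called 7 (Hmgcs1, Cyp51, Tm7sf2, Msmo1, Nsdhl, Dhcr7 and Insig1), so Pmvk, Sqle and Hsd17b7 were lost there as well as Mvk, Mvd, Idi1 and Tmem97.

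In inguinal WAT on chow, none of the 26 members tested was called in either direction (Fdps fell under the count filter). At an unadjusted p under 0.05, where no share of all genes is given, there were 9, of which 5 were lower and 4 higher. DESeq2 called 1. Over all genes tested on chow, 1.22% were called lower and 2.06% higher, and every KI mouse was below every WT mouse in 1.5%, a pattern none of the members showed. The median log2 fold change of the members was -0.10, beside 0.00 for all genes. Chow libraries were about as deep as those of BAT and shallower than those on HFD.

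The members with the largest differences on HFD had wide, overlapping groups on chow. Insig1 had a median of 100.5 CPM (64.4 to 152) in 7 WT mice and 74.5 CPM (50.5 to 107) in 6 KI mice (log2 fold change -0.48, 95% interval -0.93 to -0.04, edgeR adjusted p = 0.169). Nsdhl had a median of 32.1 CPM (22.9 to 34.0) and 22.7 CPM (18.97 to 35.7), a log2 fold change of -0.20 (interval -0.55 to 0.16). Both intervals end short of the estimates on HFD. Hmgcs1 had medians of 149.4 and 158.7 CPM (-0.25, interval -0.74 to 0.23) and Cyp51 of 15.8 and 17.4 CPM (-0.14, interval -0.62 to 0.34), so for these the median and the fitted fold differed in sign.

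Stard4 came closest to a call on chow. Its 7 WT mice had 7.06, 12.8 and 15.3 CPM and its 6 KI mice 4.27, 7.33 and 9.27 CPM as lowest, median and highest values (log2 fold change -0.77, SE 0.20, adjusted p = 0.0256). WT mouse 1 alone lay among the KI mice, and without it the adjusted p was 0.00797, with DESeq2 0.00368. In the other direction, Lss had 15.3 ± 2.14 CPM in WT (n = 7) and 25.0 ± 12.4 CPM in KI (n = 6) mice (log2 fold change 0.70, adjusted p = 0.0707), and Acat2 had 44.9 ± 6.39 and 62.6 ± 26.98 CPM (0.48, adjusted p = 0.168). KI mouse 1 was the highest in both, at 49.0 CPM for Lss and 114 CPM for Acat2, and it also had the highest sum of brown adipocyte markers on chow (919 CPM, other KI mice from 169, WT mice 52.3 to 145). Of the brown adipocyte markers tested on chow, 2 of 4 were higher in KI mice, and their part in these values was not tested.

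In BAT on HFD, none of the 26 members tested was called (4 at an unadjusted p under 0.05, all lower, and none called by DESeq2). Over all genes tested in BAT, 0.475% were called lower and 1.36% higher, and every KI mouse was below every WT mouse in 1.3%, which no member showed. The median log2 fold change was -0.15, beside -0.01 for all genes, and 19 of the 26 members were negative. The study, with its own gene set and test, reported cholesterol homeostasis genes as raised in BAT. The members here showed no such rise. The 4 members with a small unadjusted p were Acat2 (76.0 ± 12.7 and 57.4 ± 17.4 CPM, SD, n = 6 each), Pmvk (70.5 ± 29.1 and 44.3 ± 11.2 CPM), Idi1 (2.72 ± 1.495 and 1.26 ± 0.609 CPM) and Tm7sf2 (9.40 ± 1.59 and 7.49 ± 0.821 CPM), with adjusted p from 0.0864 to 0.183. Of these, Pmvk, Idi1 and Tm7sf2 were also called lower in inguinal WAT on HFD.

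Hmgcs1 in BAT had medians of 188 CPM (176 to 216) in 6 WT and 196 CPM (144 to 230.5) in 6 KI mice, a log2 fold change of 0.00 with a 95% interval of -0.27 to 0.27. Insig1 had medians of 129 CPM (64.6 to 172) and 94.6 CPM (64.1 to 222), a log2 fold change of -0.17 with an interval of -0.80 to 0.45. KI mouse 5 was the highest BAT mouse for Insig1 and for Sqle. Cyp51 (log2 fold change -0.20, interval -0.55 to 0.15) and Nsdhl (-0.53, interval -1.31 to 0.26) were not called, and for Nsdhl the 6 WT mice alone ran from 9.21 to 51.4 CPM. In BAT, 2 of 8 fibroblast markers were lower in KI mice (sum 437 to 1003 CPM in WT, 261 to 477 CPM in KI), 2 epithelial markers (Krt14 and Krt5) were at 0 in every mouse, and muscle markers were high in 2 WT mice. With those 2 mice left out no member was called, Hmgcs1 was at 0.04 and Insig1 at -0.37.

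Whether the genotype difference depended on diet was tested in inguinal WAT as the KI against WT difference on HFD minus that on chow. It was below 0 for 2 of 27 members and above 0 for none at an adjusted p under 0.01, against 0.58% and 0.264% of all genes tested. At an unadjusted p under 0.05, where no share of all genes is given, there were 14 members, 12 of them below 0. Nsdhl had a difference of log2 fold changes of -1.22 (95% interval -1.70 to -0.74, adjusted p = 0.0042) and Insig1 one of -1.60 (interval -2.30 to -0.90, adjusted p = 0.00933). Lss (-1.16, adjusted p = 0.016) and Cyp51 (-0.92, adjusted p = 0.0463) followed. Stard4 (0.61, adjusted p = 0.117) and Srebf2 (0.42, adjusted p = 0.136) were the 2 with an unadjusted p under 0.05 and a difference above 0. For Lss the genotype difference was below 0 on HFD and above 0 on chow, with neither called on its own.

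Both calls were close to the threshold. Nsdhl was not called without chow KI mouse 1 or chow KI mouse 3 and was called in the other 27 of 29 single omissions, and Insig1 was called in 6 of 29. Without the mice high in muscle, lymphocyte or epithelial markers neither was called (Nsdhl -1.09, adjusted p = 0.0602, and Insig1 -1.76, adjusted p = 0.0359). The 2 diets were deposited as separate count tables, with 2 libraries per mouse in one of them, so diet and table cannot be told apart in levels, although each genotype difference was formed within a table.

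Whether the difference depended on tissue was tested on HFD as the KI against WT difference in BAT minus that in inguinal WAT. It was above 0 for 3 of 27 members and below 0 for none at an adjusted p under 0.01, against 1.58% and 1.24% of all genes tested. At an unadjusted p under 0.05, where no share of all genes is given, there were 9 members, all above 0. The 3 were Insig1 (1.96, 95% interval 1.13 to 2.80, adjusted p = 0.00306), Hmgcs1 (1.00, interval 0.63 to 1.37, adjusted p = 0.000655) and Cyp51 (0.91, interval 0.46 to 1.36, adjusted p = 0.00934). For these 3, a value above 0 means that the KI mice were less far below WT in BAT. Sqle (1.15, adjusted p = 0.0211), Tmem97 (0.86, adjusted p = 0.0186) and Hsd17b7 (0.87, adjusted p = 0.0317) came next, and the KI mean of these was above the WT mean in BAT (log2 fold change 0.52, 0.32 and 0.18, not called).

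Hmgcs1 and Insig1 were called in all 28 single omissions, and Cyp51 in 6 of 28. With the mice high in marker genes left out, Hmgcs1 alone was called (1.13, adjusted p = 0.00177), while Cyp51 was at 0.80 (adjusted p = 0.0783) and Insig1 at 1.72 (adjusted p = 0.0471). The diet and tissue contrasts share the inguinal mice on HFD, so they are not independent of each other. The sources do not say if 1 mouse gave both BAT and inguinal WAT, and the samples were taken as separate.

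**Figure D4:**
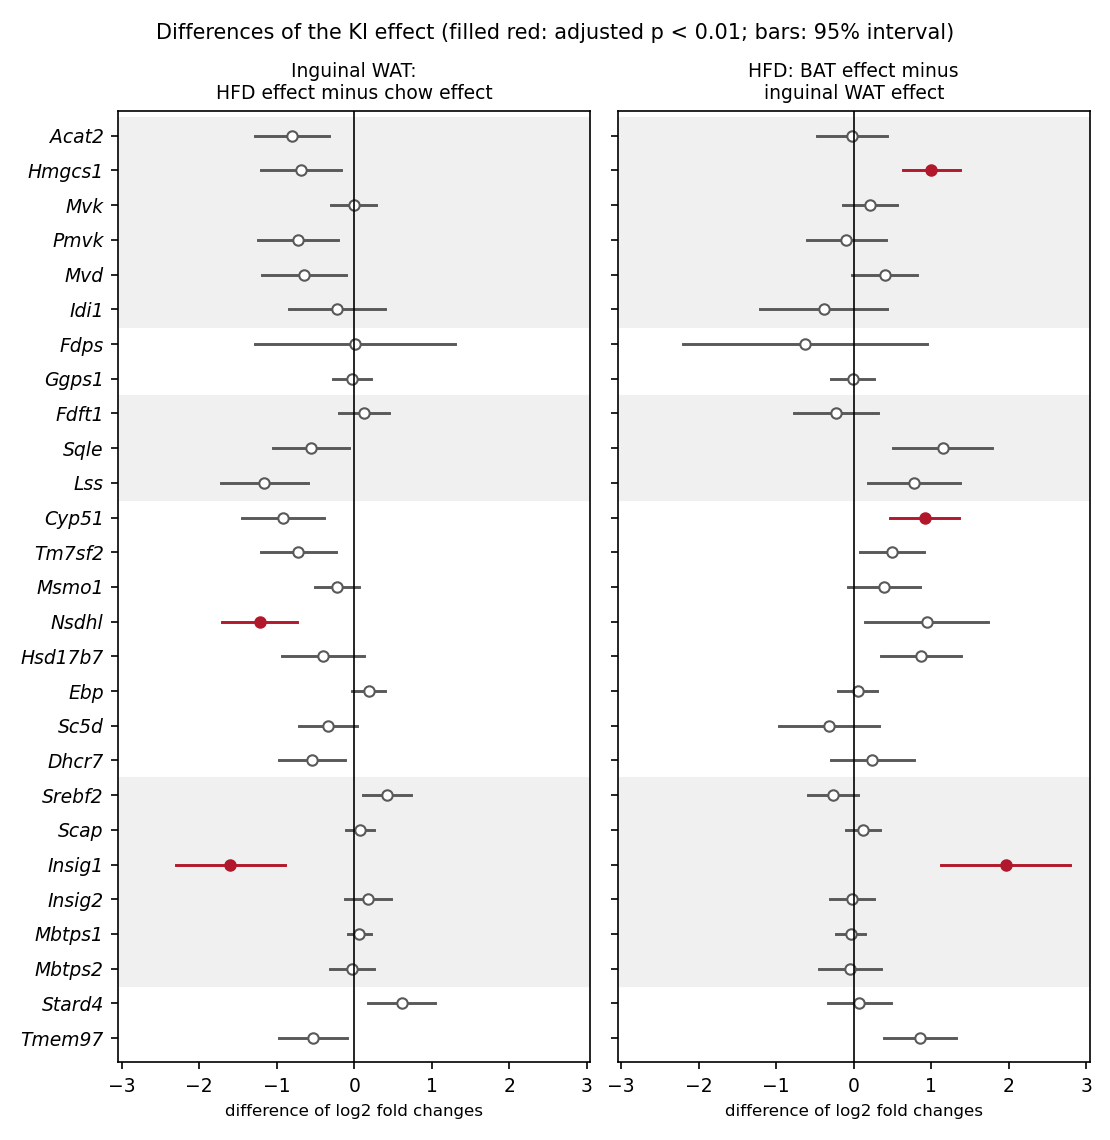
Difference of the KI against WT log2 fold change between diets (HFD minus chow, inguinal WAT) and between tissues (BAT minus inguinal WAT, HFD) on the x axis, by member in pathway order, with bars for the 95% confidence interval and red points for adjusted p under 0.01. Insig1 and Nsdhl are red and below 0 for diet, and Insig1, Hmgcs1 and Cyp51 are red and above 0 for tissue.

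Levels can be compared between genes per kb of gene length (CPM per kb, 1 scaling over all 41 columns). In WT mice Hmgcs1 and Insig1 were the highest members in inguinal WAT on HFD and in BAT, with medians of 61.0 and 51.9 CPM per kb in inguinal WAT on HFD and 52.5 and 53.8 in BAT. On chow Pmvk (37.6 CPM per kb) stood above Insig1 (29.8) and Hmgcs1 (29.2). The lowest was Fdps in each, at 0.141, 0.178 and 0.175, from at most 28 counts per mouse, a shortage whose cause was not tested. In KI mice on HFD, the medians were 28.6 CPM per kb for Hmgcs1 and 12.6 for Insig1 in inguinal WAT, next to 32.1 and 22.03 in KI mice on chow. WT levels of Nsdhl were 15.9 on HFD and 10.4 on chow, and KI levels were 5.85 and 7.31. These levels come from separate count tables and are given as a description.

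**Figure D5:**
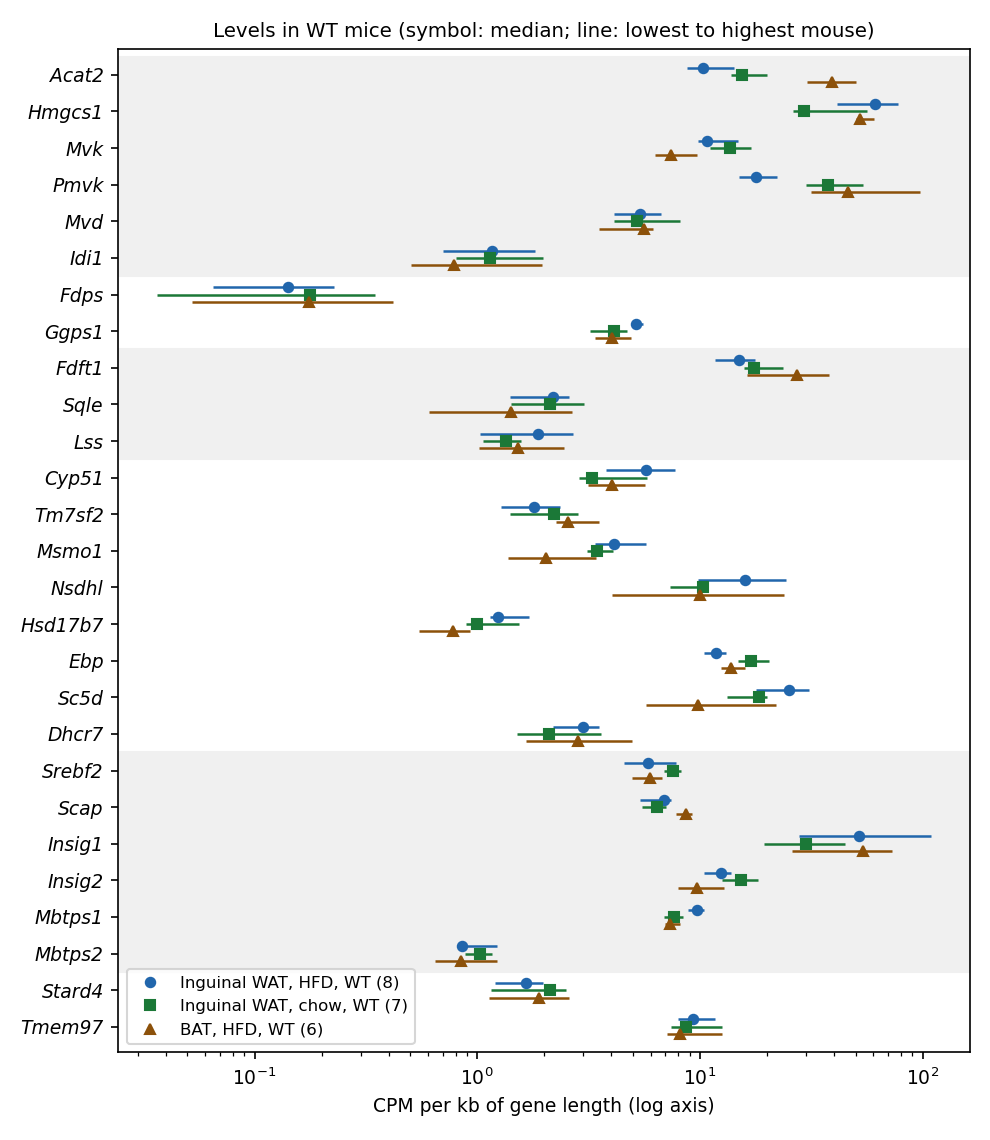
Median level in WT mice (x axis, CPM per kb of gene length, log scale) of the members in pathway order, in inguinal WAT on HFD, inguinal WAT on chow and BAT on HFD, with lines from the lowest to the highest mouse. Hmgcs1 and Insig1 are highest on HFD in both tissues, at 51.9 to 61.0. Fdps is lowest throughout, at 0.141 to 0.178, from few counts per mouse.

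Genes around the pathway were counted from 6 further lists, to be read beside the share of all genes called lower and higher (5.24% and 6.21% on HFD, 1.22% and 2.06% on chow, 0.475% and 1.36% in BAT). Among 13 tested genes that feed or assist sterol synthesis, 4 were lower and 2 higher in KI inguinal WAT on HFD (median log2 fold change 0.02), with Acss2, which makes acetyl-CoA from acetate, lowest at -1.09 (78.8 and 36.9 CPM, adjusted p = 0.000792). On chow 1 of 13 was higher, the ATP citrate lyase Acly at 2.52 (166 and 956 CPM, adjusted p = 0.00195), and in BAT none was called. Among 14 genes that use isoprenoids, 2 were higher on HFD, 1 on chow and none in BAT, with the prenyltransferase subunit Rabggtb at 0.47 and 0.56. Among 15 tested genes of SREBP handling in the ER, 2 were higher and 1 lower on HFD (Sec24d, of the COPII coat, at -0.42) and none on chow or in BAT.

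Among genes of cholesterol uptake and traffic, 5 of 22 were lower and 2 higher in KI inguinal WAT on HFD (median -0.14), where 5.24% and 6.21% of all genes were. Gramd1c, of a family that moves sterol from the plasma membrane to the ER, had a WT mean of 9.01 ± 5.59 and a KI mean of 1.33 ± 0.315 CPM, with every KI mouse below every WT mouse (log2 fold change -2.75, adjusted p = 5.49e-06). On chow 3 of 22 were higher, led by the cholesterol esterifying enzyme Soat2 (3.46), and in BAT 2 of 20 were, led by the cholesteryl ester hydrolase Nceh1 (1.83). Of the fatty acid synthesis genes, which the related factor SREBP1 controls, 3 of 14 were higher on chow, with Elovl6 at 3.17 (24.6 and 221 CPM), while on HFD 4 were lower and 2 higher, with Pnpla3 at -2.21, and in BAT none was called. The diet difference was below 0 for 6 of these 14 (Elovl6 -3.55, edgeR adjusted p = 0.00124), against 0.58% of all genes tested. In the other lists it was below 0 for 1 of 22 uptake and traffic genes. Among the 13 genes that feed or assist sterol synthesis it was below 0 for 1 and above 0 for 1. It was above 0 for 1 of 13 integrated stress response genes, and none was called in the isoprenoid and SREBP handling lists. Integrated stress response genes were higher in all 3 comparisons, 10 of 13 on HFD, 7 of 13 on chow and 8 of 13 in BAT, with Trib3 at 3.18, 3.65 and 3.54. A link between these genes and the sterol members was not tested.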

How the data were processed

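PolyA RNA libraries (TruSeq, paired reads, NovaSeq) were trimmed with cutadapt, aligned to GRCm38 with STAR and counted per gene with featureCounts, per the submitters' notes and the study's methods. Versions, annotation release and strand setting are not given in the sources used here. The authors deposited raw counts per gene, 1 column per mouse (41 columns from 57 samples), with no normalisation. Of 54838 entries, 1884 without a count and 101 repeated symbols were dropped, and 0 sample columns were unused.

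Counts were tested with edgeR 4.0.16 (R 4.3.3, limma 3.58.1; TMM scaling, filterByExpr, robust quasi-likelihood fit, genotype as the only term), with Benjamini-Hochberg adjustment over all genes and a threshold of 0.01, the false discovery rate of the study. Diet and tissue differences were contrasts of 4 group means. Filters, size factors (RLE), DESeq2 1.42.0, mitochondrial genes left out, a replicate block, thresholds and leaving out single mice were tried as alternatives, and leaving out mice high in marker genes was added after their sums were seen. Scripts were tested on simulated data. P-values weigh each difference against the spread between mice within groups, and litter and cage were not terms in the fit.

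Members and lists were chosen with earlier results of these data known. All 27 members are named, those called with their single-mouse spread, and of each related list at most the called gene with the largest log2 fold change per comparison. Promoter windows came from RefSeq, build GRCm38.p6. Promoters were to be printed for called members with a sterol element match, which Hmgcs1 alone had, and those of Insig1, Nsdhl and Cyp51 were added after their fold changes were seen. Gene coordinates and overlaps came from the GENCODE annotation of GRCm38.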

Additional observations from a re-analysis of the deposited data

Results flagged for a closer look

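The 158 groups examined were 27 members in 6 groups, less Fdps on chow and in BAT. The cut-off used passes about 1 in 20 groups of normally distributed values. Genes outside the list were not examined and some mice recur between members, so no excess over chance is read from the count. In 18 groups a mouse had a gap to its nearest neighbour that was large for the range of its group. In inguinal WAT on HFD these were KI mouse 3 for Hmgcs1 (219.989 CPM, nearest 156.677), WT mouse 5 for Mvk (45.3171, nearest 35.4206), KI mouse 2 for Mvk (21.6763, nearest 26.074) and for Mvd (11.6906, nearest 8.22348), and KI mouse 5 for Insig1 (64.5458, nearest 50.6292). KI mice 2, 3 and 5 are the KI mice high in lymphocyte or muscle markers.

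On chow, KI mouse 1 stood apart for Acat2 (114.388 CPM, nearest 63.7093), Lss (49.0235, nearest 26.6421) and Dhcr7 (18.1568, nearest 12.6453). WT mouse 6 stood apart for Idi1 (7.53033, nearest 4.552), WT mouse 4 for Dhcr7 (23.3605, nearest 13.8806) and WT mouse 1 for Stard4 (7.05737, nearest 11.7885).

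In BAT, KI mouse 5 stood apart for Sqle (14.3153 CPM, nearest 8.79317) and Insig1 (222.223, nearest 114.921), KI mouse 3 for Srebf2 (26.923, nearest 31.6503) and KI mouse 6 for Tmem97 (18.3391, nearest 12.1904). Among WT mice, mouse 1 stood apart for Mvd (5.17116, nearest 7.64597), mouse 5 for Msmo1 (15.7959, nearest 9.82675) and mouse 4 for Hsd17b7 (2.15709, nearest 3.04966).

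The genotype difference itself differed between diets for Nsdhl (-1.2183, HFD minus chow, log2) and Insig1 (-1.59718), and between tissues for Hmgcs1 (0.997899, BAT minus inguinal WAT, log2), Cyp51 (0.913715) and Insig1 (1.96358), by edgeR's test of the contrast. These values are described in the report with their intervals.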

How the results depend on the processing

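No member's direction was reversed where it was called. Of the 14 members called in inguinal WAT on HFD, an adjusted p under 0.001 left 9, one fit of all 6 groups 7 and each mouse left out in turn 10 to 15. The unfiltered fit and the fit without the mice high in marker genes each gave 10, the threshold of 0.05 gave 16, and DESeq2 gave 14. On chow the count of 0 became 1 (Stard4) at 0.05, with DESeq2 and in one fit of all groups, and ran from 0 to 1 over single omissions (1 without WT mouse 1). In BAT it stayed at 0 in all these settings. The 2 members called for the diet difference became 4 at 0.05, 0 at 0.001, 1 without the filter, 3 with DESeq2, 1 in one fit of all groups and 0 without the mice high in marker genes, and 0 to 3 over single omissions (0 without chow KI mouse 1 or KI mouse 3, 3 without HFD WT mouse 8). The 3 for the tissue difference became 6 at 0.05, 1 at 0.001, 6 with DESeq2, 2 without the filter, 2 in one fit of all groups and 1 without those mice, and 2 to 5 over single omissions (5 without BAT WT mouse 5). Over all genes, edgeR and DESeq2 called 479 and 1107 on chow, 243 and 717 in BAT, 147 and 409 for the diet difference and 485 and 848 for the tissue difference. The cause was not tested.

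The replicate block (the mouse number as a term) gave 10 members in inguinal WAT on HFD (without Mvk, Idi1, Sqle and Tmem97), 0 on chow, 0 in BAT, 0 for the diet difference and 3 for the tissue difference. Deviations of same-numbered KI and WT mice correlated at over 0.1 in 2 of 8 pairs of inguinal WAT on HFD (-0.25 to 0.71), 2 of 6 on chow (-0.29 to 0.18) and 3 of 6 in BAT (-0.08 to 0.45), and for the tissues in 3 of 12. Since not every pair passed 0.1, the numbers were not taken as pairs.

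The median log2 fold changes moved by less than the spread between mice (over single omissions -0.56 to -0.46 on HFD, -0.17 to -0.08 on chow and -0.20 to -0.08 in BAT). Members with few counts limit the rest: Fdps was tested on HFD alone of the 3 genotype comparisons.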
